A study of Mus musculus with 12 samples.

Results

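Adenosine signalling and turnover was followed in perfused mouse hearts through 9 genes, listed with earlier results of these data known. By symbol they are Entpd1, Nt5e, Adora1, Adora2a, Adora2b, Adora3, Slc29a1, Adk and Ada. They are 9 of the 52858 genes in the deposited tables, and 8 of them were among the 15240 genes with enough reads to be tested. Adora3 was the gene that did not pass. RNA was measured in 12 libraries, 3 hearts for each of 4 groups, all from male mice whose hearts were excised and perfused on a Langendorff apparatus, so that every group had been perfused with buffer outside the body. C57-non-IR hearts came from C57BL/6J mice, the background strain, and were perfused continuously. C57-IR hearts, also from C57BL/6J mice, went through no-flow global ischemia and then reperfusion. Slit2-non-IR and Slit2-IR hearts had the same treatments and came from Slit2-Tg mice, which carry a full-length human SLIT2 cDNA under the CMV promoter, which is not specific to any tissue. The transgene had been injected into oocytes of a C57 and CBA cross. The sample labels give the genotype, and IR or non-IR was read from the letters of the sample titles against the groups of the study's methods. The study asked how Slit2 overexpression alters the heart's response to ischemia-reperfusion (IR), and here the 9 adenosine genes were compared across the same groups.

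Adenosine is a breakdown product of ATP that accumulates in ischemic tissue. Outside cells, the ectonucleotidase CD39 (Entpd1) degrades ATP and ADP to AMP, and CD73 (Nt5e) removes the last phosphate to give adenosine. Adenosine acts on G protein-coupled receptors. The A1 receptor (Adora1) and the A3 receptor (Adora3) couple to Gi and lower cAMP, and those encoded by Adora2a and Adora2b couple to Gs and raise it. In the heart the A1 receptor slows the sinoatrial and atrioventricular nodes, the receptor encoded by Adora2a dilates coronary vessels, and Nt5e and Adora2b are known as hypoxia-inducible. Signalling ends when the equilibrative transporter ENT1 (Slc29a1) carries adenosine into the cell, where adenosine kinase (Adk) rephosphorylates it to AMP or adenosine deaminase (Ada) converts it to inosine.

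The libraries held 16601154 to 24841291 reads on genes, recovered from the deposited FPKM. These are fragments scaled to the length of the gene and to a median-of-ratios size factor of the library, a level per length. Cardiomyocyte markers were abundant in every library, with Myh6 at 2366 to 4087 FPKM, and endothelial Pecam1 stood at 25 to 43.1 FPKM and macrophage C1qa at 46.8 to 105.8 FPKM. Slit2-IR replicate 1 stood apart in the summed FPKM of 10 atrial markers, at 1727 against 38.8 to 253 in the other 11 libraries. In all 4 groups replicate 1 had the highest summed cardiomyocyte markers, 16626 to 19090 FPKM against 12552 to 15117 FPKM in the other 8 libraries, and the lowest summed macrophage markers of its group. The row of the mouse Slit2 gene lay at 0.0847 to 0.813 FPKM and did not separate the genotypes. Both ends of that range were Slit2-IR libraries, replicate 3 with 48 reads and replicate 2 with 498. The row is that of the mouse gene, and whether reads of the human transgene aligned to it was not examined. It therefore gives no check of the genotype labels. The study itself reported higher Slit2 mRNA and protein in Slit2-Tg hearts. In whole-heart RNA, fewer cells of a type and less RNA per cell cannot be told apart.

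Adk and Slc29a1, the kinase and the transporter, were the most abundant of the 9. Over all 12 libraries Adk averaged 15.5 ± 1.1 FPKM (SD, n = 12) and Slc29a1 12.7 ± 1.4 FPKM. Entpd1 followed at 5.0 ± 0.97 FPKM, level with Adora2a at 4.97 ± 1.45 FPKM. Adora1 averaged 2.52 ± 0.653 FPKM, Nt5e 1.34 ± 0.316 FPKM, Ada 0.913 ± 0.286 FPKM and Adora2b 0.683 ± 0.394 FPKM. Adora3 was lowest, at 0.0440 ± 0.0283 FPKM. Neighbours in this order mostly overlapped in their ranges, and Entpd1 and Adora2a could not be ordered, since Entpd1 was the higher in 7 of 12 libraries. The gaps between Slc29a1 and Entpd1 and between Adora2b and Adora3 were wider than the spread over libraries, with no overlap of their ranges. Adk was the steadiest, with a highest level 1.34 times its lowest, and Adora2b the most variable of the 8 tested, with a highest level 5.35 times its lowest.

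**Figure D1:**
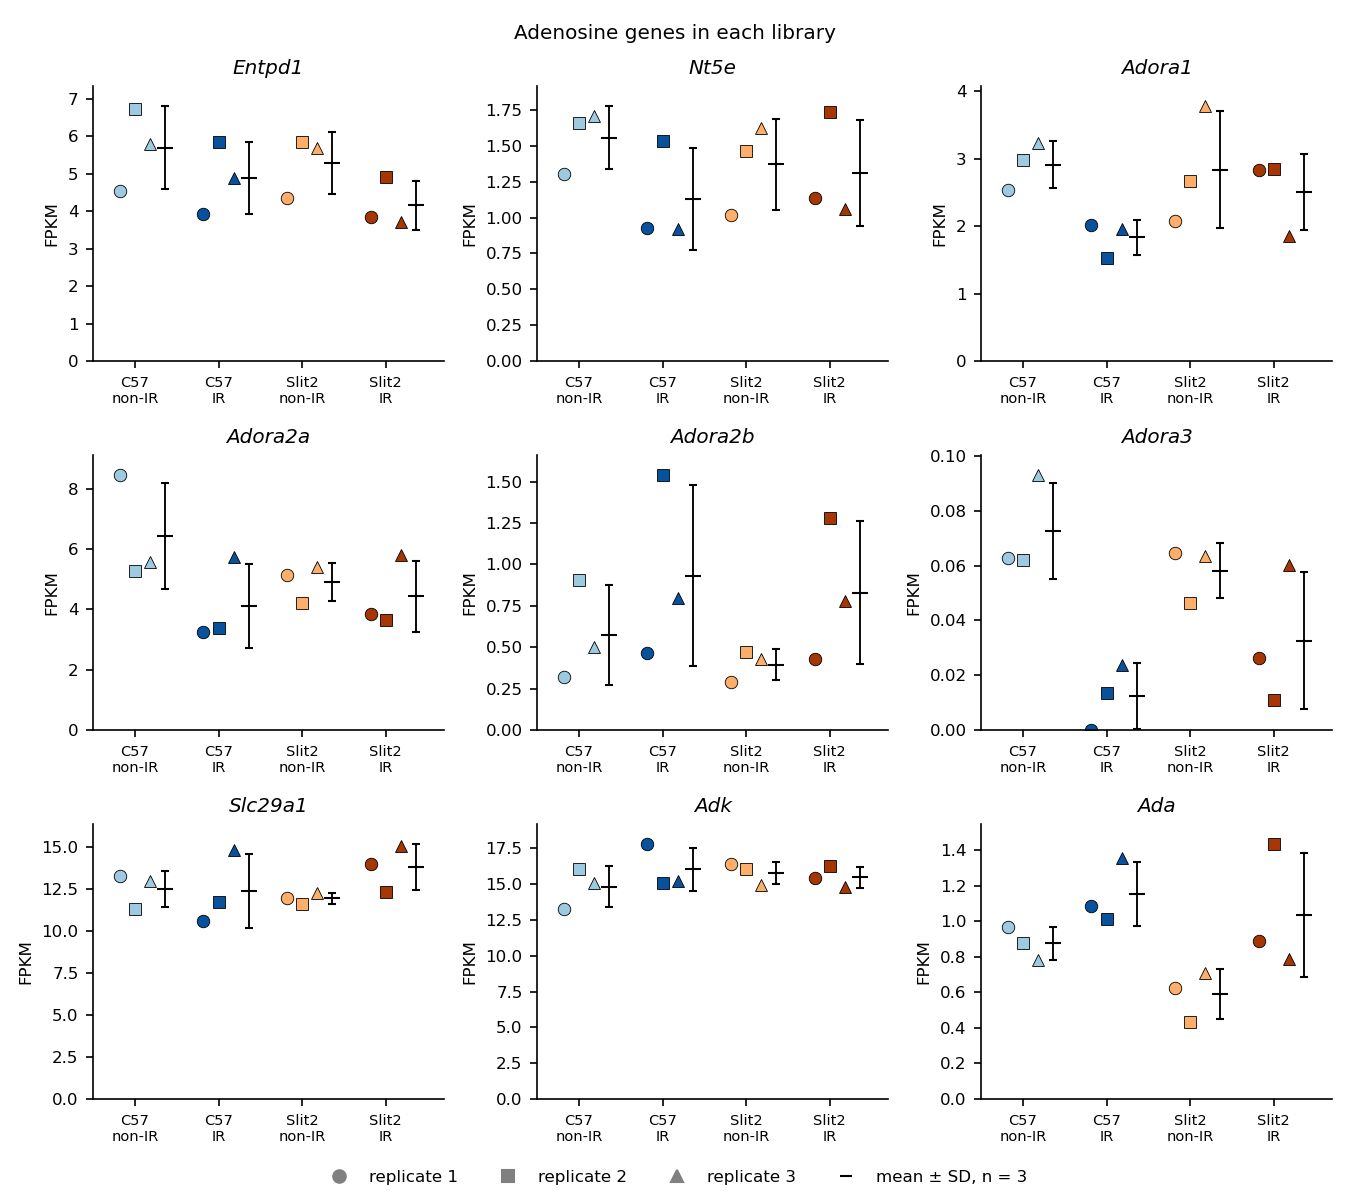
FPKM of the 9 adenosine genes (y axes, each from 0) in the 12 libraries by group (x axes). Symbols are libraries, shaped by replicate number, and bars give the group mean ± SD of 3 libraries. Adora1 in the C57-IR libraries lies at 1.53 to 2.01 FPKM, below the C57-non-IR libraries at 2.54 to 3.23 FPKM, and Adora2b is highest in replicate 2 of every group.

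The 9 genes lie on 9 different chromosomes. In the GRCm38 coordinates of the tables, Entpd1 (ENSMUSG00000048120) spans 19:40612366-40741602 and Nt5e (ENSMUSG00000032420) 9:88327197-88372092, both on the plus strand. Adora1 (ENSMUSG00000042429) lies at 1:134199223-134235431 on the minus strand, Adora2a (ENSMUSG00000020178) at 10:75316877-75334784, Adora2b (ENSMUSG00000018500) at 11:62248984-62266453 and Adora3 (ENSMUSG00000000562) at 3:105870858-105908926, all plus. Slc29a1 (ENSMUSG00000023942) lies at 17:45585200-45599606 and Ada (ENSMUSG00000017697) at 2:163726584-163750239, both minus, and Adk (ENSMUSG00000039197) at 14:21052574-21448569, plus. All 9 are protein-coding. Adora1 overlaps Mybph on the opposite strand, and Slc29a1 overlaps the antisense transcript Gm17080. The use of strand in counting is not given in the sources used here, so reads cannot be told apart there, but the overlapping rows were small, with 17 reads on Mybph and 32 on Gm17080 over all libraries against 3703 on Adora1 and 12796 on Slc29a1.

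RefSeq promoter windows on GRCm38.p6 were at hand for 8 of the 9 genes, 18 windows in all. The 250 bases before the RefSeq start are shown for Adora2b and Nt5e, which are known as hypoxia-inducible. They are also shown for Ada, which had the smallest p-value of the 8 genes for IR. For Nt5e the RefSeq start lies inside the gene span given above, so its window falls within the annotated gene. Capitals mark the core of a hypoxia response element, ACGTG or GCGTG on either strand. The Adora2b window is chr11:62248734-62248983 on the plus strand, the Nt5e window chr9:88327359-88327608 on the plus strand and the Ada window chr2:163750240-163750489 on the minus strand, each written 5′ to 3′ in the direction of the gene.
Adora2b: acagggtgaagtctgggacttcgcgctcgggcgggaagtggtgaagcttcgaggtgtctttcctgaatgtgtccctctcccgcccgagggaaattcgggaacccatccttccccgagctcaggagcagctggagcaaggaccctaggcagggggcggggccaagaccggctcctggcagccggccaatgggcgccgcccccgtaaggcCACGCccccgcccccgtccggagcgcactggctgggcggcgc
Nt5e: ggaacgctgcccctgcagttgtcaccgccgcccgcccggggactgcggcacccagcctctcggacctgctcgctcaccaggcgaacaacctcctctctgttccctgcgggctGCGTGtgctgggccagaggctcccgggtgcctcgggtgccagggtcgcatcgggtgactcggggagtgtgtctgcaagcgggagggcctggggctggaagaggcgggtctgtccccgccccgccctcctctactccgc
Ada: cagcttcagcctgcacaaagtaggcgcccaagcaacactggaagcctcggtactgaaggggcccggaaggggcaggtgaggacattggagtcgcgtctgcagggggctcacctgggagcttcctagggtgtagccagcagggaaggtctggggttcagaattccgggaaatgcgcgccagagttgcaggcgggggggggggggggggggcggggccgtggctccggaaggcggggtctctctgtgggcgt
Adora2b and Nt5e each held 1 core, Adora2b on the opposite strand (CACGC), and Ada held 0. Of 32851 RefSeq promoter windows of this length, 38.6% held a core, so its presence is common. The full cAMP response element TGACGTCA, which 1.55% of windows held, was in 0 of the 3. The GC box GGGCGG was searched on both strands and was held by 32.7% of windows. It occurred 6 times in the Adora2b window, 4 times in the Nt5e window and 1 time in the Ada window. A match is only a string of letters in the window, and binding was not measured.

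The first question was what IR did to the 9 genes. The 2 genotypes were combined in the mean IR effect, the average of the IR differences in C57BL/6J and in Slit2-Tg hearts, by limma's moderated test on log2(FPKM + 1) with Benjamini-Hochberg adjustment over all 15240 genes. Of the 8 adenosine genes tested, 0 passed an adjusted p of 0.05, where 3.49% of all genes did. At an unadjusted p under 0.05, 1 was higher (Ada) and 2 were lower (Adora1 and Adora2a), against 7.93% of all genes higher and 7.97% lower. The median log2 fold change of the 8 genes was -0.06, and that of all genes tested 0.00363. limma-voom on the recovered reads likewise called 0 of the 8, with the same counts of 1 higher and 2 lower at the unadjusted threshold.

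**Figure D2:**
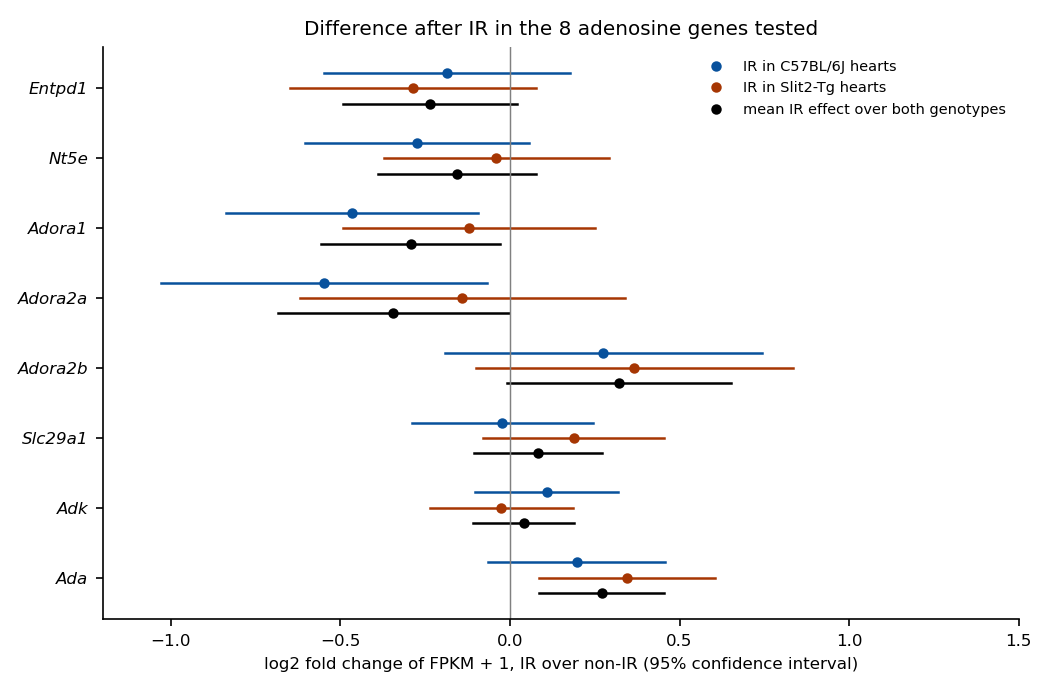
Log2 fold change of FPKM + 1 after IR (x axis) for the 8 adenosine genes tested (rows), in C57BL/6J hearts, in Slit2-Tg hearts and averaged over both genotypes. Points are limma estimates and lines their 95% confidence intervals. The averaged interval of Ada lies above 0, from 0.09 to 0.46, and those of Adora1 and Adora2a lie below 0. No adjusted p is under 0.05.

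On the production side, both ectonucleotidases had lower or similar means after IR, and neither passed the test. Entpd1 stood at 4.55, 6.73 and 5.80 FPKM in C57-non-IR replicates 1 to 3 and at 3.92, 5.84 and 4.89 FPKM in C57-IR replicates 1 to 3. In Slit2-non-IR hearts it stood at 4.34, 5.83 and 5.67 FPKM, and in Slit2-IR hearts at 3.83, 4.91 and 3.71 FPKM. The groups overlapped in both genotypes. In 0 of 6 same-numbered pairs was the IR library the higher, although the numbers were not shown to pair the C57BL/6J hearts. The share of all genes with such a count was not computed. Replicate 2 held the highest Entpd1 value in each of the 4 groups. The mean IR effect on Entpd1 was -0.24 ± 0.12 (SE) on the log2 scale (limma, p = 0.0679, adjusted p = 0.368, exact permutation p = 0.075).

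Nt5e stood at 1.30, 1.66 and 1.71 FPKM in C57-non-IR hearts and at 0.926, 1.54 and 0.921 FPKM in C57-IR hearts. Slit2-non-IR hearts had 1.02, 1.47 and 1.63 FPKM and Slit2-IR hearts 1.14, 1.73 and 1.06 FPKM. C57-IR replicates 1 and 3 were below every C57-non-IR library while replicate 2 was inside their range, and the Slit2-Tg groups overlapped throughout. The IR difference was -0.27 ± 0.15 in C57BL/6J hearts (limma, adjusted p = 0.701) and -0.04 ± 0.15 in Slit2-Tg hearts (limma, adjusted p = 0.967). The mean IR effect, averaged over both genotypes, had a 95% interval of -0.39 to 0.08. The scale is log2(FPKM + 1), which understates changes at levels this low.

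Among the receptors, Adora2a and Adora1 made up most of the transcripts per length. Adora2a took 46.9% to 74.3% of the summed FPKM of the 4 receptors in a library, Adora1 21.9% to 39.7% and Adora2b 2.80% to 23.8%. The summed FPKM of the receptors was 11.4, 9.23 and 9.39 in C57-non-IR hearts and 5.71, 6.46 and 8.51 in C57-IR hearts, which did not overlap. Of the single genes tested, 7.01% lay wholly lower in this comparison. In Slit2-non-IR hearts it was 7.57, 7.39 and 9.66 and in Slit2-IR hearts 7.13, 7.79 and 8.48, which overlapped.

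**Figure D3:**
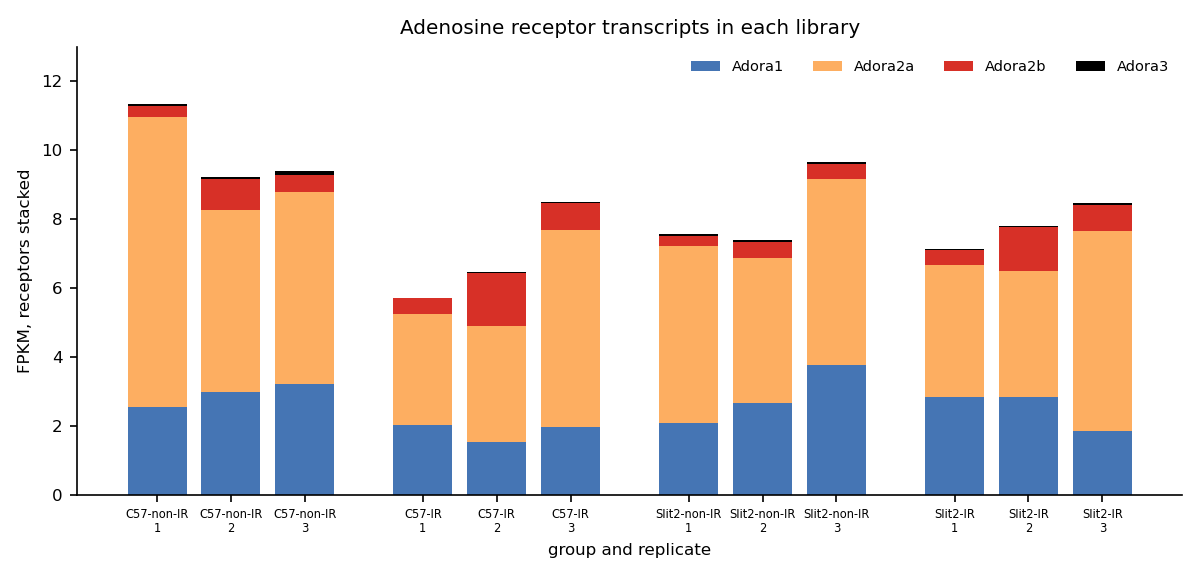
Summed FPKM of the 4 adenosine receptors (y axis, from 0) in each of the 12 libraries (x axis, group and replicate), stacked by receptor. Adora2a is the largest share in all 12 libraries, C57-IR bars reach 5.71 to 8.51 FPKM against 9.23 to 11.4 FPKM in C57-non-IR hearts, and the Adora2b segment is widest in C57-IR replicate 2, at 23.8% of the bar.

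Adora1, which slows the heart's pacemaker and conduction tissue, was the tested receptor whose C57BL/6J groups came apart. It stood at 2.54, 2.98 and 3.23 FPKM in C57-non-IR hearts and at 2.01, 1.53 and 1.96 FPKM in C57-IR hearts. All C57-IR libraries lay below all C57-non-IR libraries, as was the case for 7.01% of all genes tested, and the C57-IR mean was 0.630 times the C57-non-IR mean. In Slit2-Tg hearts the groups overlapped, with 2.07, 2.67 and 3.78 FPKM in Slit2-non-IR and 2.83, 2.84 and 1.85 FPKM in Slit2-IR libraries. The difference in C57BL/6J hearts was -0.47 ± 0.17 (limma, p = 0.0187, adjusted p = 0.388), and the exact permutation p of 0.1 is the smallest that 3 against 3 libraries allow. That in Slit2-Tg hearts was -0.12 ± 0.17 (limma, adjusted p = 0.882). The test of the difference between the genotypes gave 0.35 ± 0.24 (limma, p = 0.176, adjusted p = 1.0, exact permutation p = 0.21), so the genotypes were not shown to differ. Slit2-IR replicate 1, the library with high atrial markers, had 2.83 FPKM of Adora1. Replicate 2, with summed atrial markers of 120 FPKM, had 2.84 FPKM, and replicate 3, with 78.1 FPKM of them, had 1.85 FPKM. Whether atrial tissue bears on the Adora1 levels was not tested.

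Adora2a stood at 8.44, 5.28 and 5.57 FPKM in C57-non-IR hearts and at 3.24, 3.38 and 5.73 FPKM in C57-IR hearts. C57-non-IR replicate 1 was the highest of the 12 libraries and C57-IR replicate 3 lay within the non-IR range, so the groups overlapped. In Slit2-non-IR hearts it stood at 5.15, 4.21 and 5.39 FPKM and in Slit2-IR hearts at 3.84, 3.65 and 5.79 FPKM, again overlapping. The IR difference was -0.55 ± 0.22 in C57BL/6J hearts (limma, p = 0.0291, adjusted p = 0.455, exact permutation p = 0.3) and -0.14 ± 0.22 in Slit2-Tg hearts (limma, adjusted p = 0.896). The interaction was 0.41 ± 0.31 (limma, p = 0.214, exact permutation p = 0.21). Summed endothelial markers moved with it in part. They were highest in C57-non-IR replicate 1, at 344.7 FPKM, and lowest in C57-IR replicate 1, at 201.7 FPKM. These were the libraries with the highest and the lowest Adora2a. C57-IR replicate 2 departed from this. Its endothelial markers, at 278.8 FPKM, were near the 288.9 and 283.7 FPKM of C57-non-IR replicates 2 and 3, while its Adora2a was lower. Slit2-non-IR replicate 1 had 225.4 FPKM of endothelial markers with 5.15 FPKM of Adora2a. In C57BL/6J hearts 8 of 8 endothelial markers had a negative difference after IR, with a median of -0.16, and 0 passed the test. Of all 15240 genes tested, 7546 had a negative difference there. In Slit2-Tg hearts 4 of the 8 markers did, with a median of -0.02. Per 100 FPKM of summed endothelial markers, Adora2a was 2.45, 1.83 and 1.96 in C57-non-IR and 1.60, 1.21 and 1.92 in C57-IR hearts, which still overlapped. The part of endothelial transcripts in the Adora2a values was not tested.

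Adora2b had a higher mean after IR in both genotypes, where the other receptors had lower ones. It stood at 0.318, 0.904 and 0.501 FPKM in C57-non-IR hearts and at 0.466, 1.54 and 0.796 FPKM in C57-IR hearts. In Slit2-non-IR hearts it stood at 0.287, 0.470 and 0.428 FPKM and in Slit2-IR hearts at 0.427, 1.28 and 0.778 FPKM. In all 4 groups replicate 1 was the lowest and replicate 2 the highest. The IR library was the higher in 6 of 6 same-numbered pairs, a count whose share over all genes was not computed. The groups as such overlapped in both genotypes. The mean after IR was 1.62 times the non-IR mean in C57BL/6J hearts and 2.10 times in Slit2-Tg hearts. With 10 to 57 reads per library, counting error alone is sizeable. The mean IR effect was 0.32 ± 0.15 (limma, p = 0.0560, adjusted p = 0.334, exact permutation p = 0.095), and it missed the adjusted threshold. Over all 15240 genes, the replicate number as a block raised the calls from 356 higher and 176 lower to 518 and 255. With it Adora2b passed as well (limma, adjusted p = 0.0383), although the numbers were not shown to pair the C57BL/6J hearts. The C57BL/6J difference was 0.28 ± 0.21 and the Slit2-Tg difference 0.37 ± 0.21, with an interaction of 0.09 ± 0.30 (limma, p = 0.768, exact permutation p = 0.795). The low replicate 1 libraries were also those with high cardiomyocyte and low macrophage markers, and whether this bears on the Adora2b levels was not tested. The single hypoxia core shown for Adora2b above is a feature that 38.6% of promoter windows share.

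**Figure D4:**
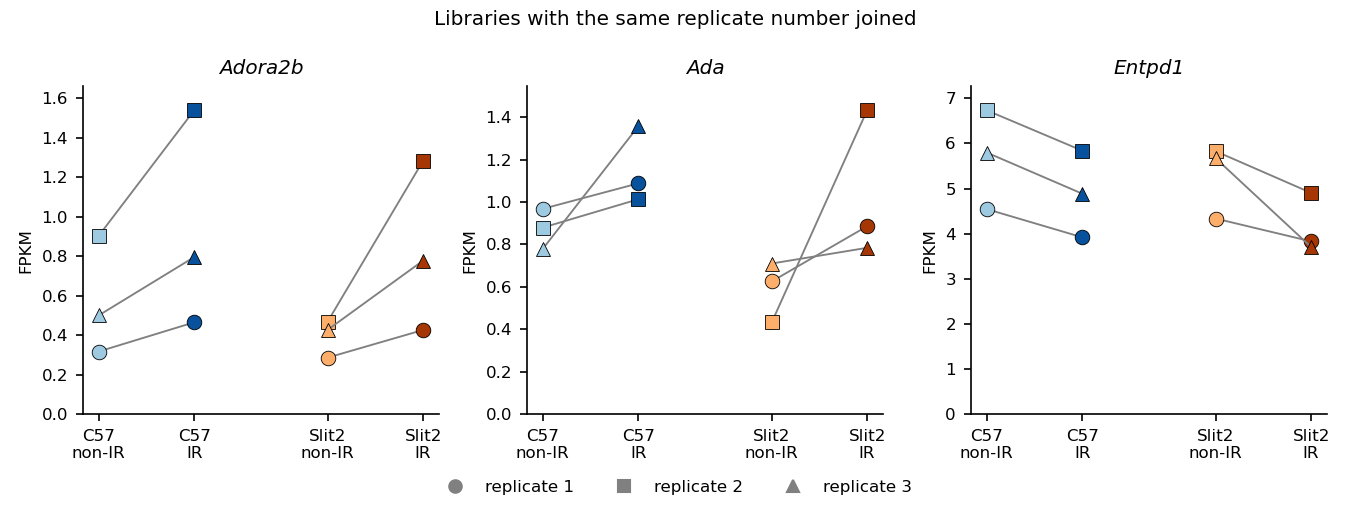
FPKM of Adora2b, Ada and Entpd1 (y axes, from 0) in non-IR and IR libraries of each genotype (x axes). Lines join libraries with the same replicate number, for which the labels name no shared source. For Adora2b the IR library is the higher in 6 of 6 joined pairs, and for Entpd1 in 0 of 6. For Ada it is 6 of 6 under any pairing, since its groups do not overlap. Shown are the tested genes with 6 of 6 or 0 of 6, and the share of all genes with such counts was not computed.

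Adora3 was near the limit of detection, with 0 to 6 reads per library and 41 in all. It had 15 reads in C57-non-IR, 3 in C57-IR, 15 in Slit2-non-IR and 8 in Slit2-IR libraries, with exact Poisson 95% intervals of 8.40 to 24.7, 0.619 to 8.77, 8.40 to 24.7 and 3.45 to 15.8 reads, which cover counting error only. By library it was 0.0630, 0.0621 and 0.0930 FPKM in C57-non-IR and 0, 0.0136 and 0.0239 FPKM in C57-IR hearts, which did not overlap. Of the genes tested, 7.01% lay wholly lower in this comparison. Slit2-non-IR hearts had 0.0646, 0.0465 and 0.0636 FPKM and Slit2-IR hearts 0.0264, 0.0111 and 0.0602 FPKM, which overlapped. Two-sided exact permutation of the IR labels within each genotype gave p = 0.01 for its mean IR effect, 1 of 54 such tests over the 9 genes. Its span holds the gene Tmigd3 on the same strand, on which 8 reads were counted, so reads cannot be assigned between them with certainty.

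On the clearance side, the abundant genes Adk and Slc29a1 varied little between groups, and Ada had the clearest separation of the 9 genes, although none of the 3 passed the adjusted threshold. Adk stood at 13.3, 16.1 and 15.1 FPKM in C57-non-IR, 17.8, 15.1 and 15.2 in C57-IR, 16.4, 16.0 and 14.9 in Slit2-non-IR and 15.4, 16.3 and 14.8 FPKM in Slit2-IR hearts, with overlap throughout. Its mean IR effect was 0.04 ± 0.07, with a 95% interval of -0.11 to 0.19. Slc29a1 stood at 13.3, 11.3 and 13 FPKM in C57-non-IR and 10.6, 11.7 and 14.9 FPKM in C57-IR hearts, which overlapped. It stood at 12, 11.6 and 12.3 FPKM in Slit2-non-IR and 14, 12.3 and 15.1 FPKM in Slit2-IR hearts, where every IR library was the higher, though Slit2-IR replicate 2 only just. In Slit2-Tg hearts 8.65% of all genes had all IR libraries higher. The Slit2-Tg difference was 0.19 ± 0.12 (limma, p = 0.149, adjusted p = 0.636, exact permutation p = 0.1, the smallest possible), and the mean IR effect 0.08 ± 0.09.

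Ada had the smallest p-value of the 8 genes for the mean IR effect. It stood at 0.968, 0.879 and 0.779 FPKM in C57-non-IR hearts and 1.09, 1.01 and 1.36 FPKM in C57-IR hearts. In Slit2-non-IR hearts it stood at 0.626, 0.433 and 0.710 FPKM and in Slit2-IR hearts at 0.886, 1.43 and 0.784 FPKM. In both genotypes every IR library lay above every non-IR library, and no other of the 9 genes did so. Of all genes tested, 2.93% had all IR libraries higher in both genotypes, and 6.75% did in C57BL/6J hearts. The mean IR effect was 0.27 ± 0.08, with a 95% interval of 0.09 to 0.46 (limma, p = 0.00779, adjusted p = 0.116, exact permutation p = 0.005), and it missed the adjusted threshold. The permutation p is the smallest that 400 relabelings can give, and carries no adjustment for the 54 tests. The difference was 0.20 ± 0.12 in C57BL/6J hearts (limma, adjusted p = 0.746) and 0.35 ± 0.12 in Slit2-Tg hearts (limma, p = 0.0137, adjusted p = 0.264, exact permutation p = 0.1). With 20 to 69 reads per library, Ada rests on few reads. The ratio of Adk to Ada FPKM ranged from 13.7 to 19.3 in C57-non-IR, 11.2 to 16.3 in C57-IR, 21.0 to 37.0 in Slit2-non-IR and 11.4 to 18.8 in Slit2-IR hearts, and the Slit2-non-IR libraries were the only group clear of the others.

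The genes whose levels ran closest to Ada over the 12 libraries, by Pearson correlation of log2(FPKM + 1), were Tubb4b (r = 0.897), a beta-tubulin, Dlc1 (r = 0.865) and Slc16a13 (r = 0.862), a monocarboxylate transporter. These are the 3 highest of all genes tested, so high values are built into the choice, and group differences and scaling are shared by all points.

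Taken by genotype, IR in C57BL/6J hearts left 0 of the 8 genes past the adjusted threshold, against 0.459% of all genes tested. At an unadjusted p under 0.05, 0 were higher and 2 were lower (Adora1 and Adora2a), against 4.55% and 4.42% of all genes. limma-voom gave the same counts. The study, at an unadjusted P under 0.05, also listed Adora1 and Adora2a among the genes lowered by IR in C57BL/6J hearts. IR in Slit2-Tg hearts also left 0 of 8, against 0.525% of all genes (80 genes, or 202 with the replicate number as a block), and 1 was higher at the unadjusted threshold (Ada) and 0 lower, against 6.15% and 5.07%. With the block 2 were higher at that threshold (Ada and Adora2b) and 1 lower (Entpd1), against 7.85% and 5.89% of all genes, and 0 passed the adjusted one. The interaction of Slit2-Tg and IR, the test of whether these responses differed, passed for 0 of 8 genes, as it did for 0% of all genes, and 0 of 8 reached an unadjusted p under 0.05, against 1.86% of all genes.

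The other question was whether Slit2-Tg hearts differed from C57BL/6J hearts under the same perfusion. Without IR, 0 of the 8 genes passed the adjusted threshold, against 0.0394% of all genes, and 0 reached an unadjusted p under 0.05, against 3.19%. Their median log2 fold change was -0.10, and that of all genes -0.00268. Ada was the gene whose groups did not overlap, with 0.433 to 0.710 FPKM in Slit2-non-IR and 0.779 to 0.968 FPKM in C57-non-IR hearts, and 4.57% of all genes lay wholly lower in this comparison. Its difference was -0.24 ± 0.12 (limma, p = 0.0661, adjusted p = 1.0, exact permutation p = 0.1, the smallest possible). Adora2a had a difference of -0.31 ± 0.22 and Adora2b of -0.16 ± 0.21, with overlapping groups. After IR, 0 of 8 genes passed, against 0.0459% of all genes, and 0 reached an unadjusted p under 0.05, against 3.16%. The smallest p-value was that of Adora1, at 0.30 ± 0.17 (limma, p = 0.106, exact permutation p = 0.3), with a Slit2-IR mean 1.37 times the C57-IR mean and overlapping groups. The 95% intervals differed in width by gene, from -0.79 to 0.17 for Adora2a and -0.12 to 0.30 for Adk without IR, and from -0.07 to 0.67 for Adora1 and -0.26 to 0.17 for Adk after IR.

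The wider purine system was described with 90 genes in 5 lists, of which 78 were tested. For the mean IR effect 2 of the 78 passed the adjusted threshold, both higher, against 3.49% of all genes in either direction and 2.34% higher. At an unadjusted p under 0.05, 9 were higher and 3 lower, against 7.93% and 7.97% of all genes. Pde4b, a phosphodiesterase that degrades the cAMP raised by Gs-coupled receptors such as those of Adora2a and Adora2b, rose from 2.34, 2.35 and 2.59 FPKM in C57-non-IR hearts to 5.53, 10.2 and 7.67 FPKM in C57-IR hearts. In Slit2-Tg hearts it went from 2.20, 4.11 and 2.64 FPKM to 6.85, 8.95 and 7.79 FPKM. Every IR library lay above every non-IR library in both genotypes, as for 2.93% of all genes tested. The mean IR effect was 1.25 ± 0.14 (limma, adjusted p = 0.00173). It also passed in each genotype alone (limma, adjusted p = 0.0279 in C57BL/6J and 0.0403 in Slit2-Tg hearts). The averaged call held without each of the 12 libraries. The C57BL/6J call was lost without any C57-non-IR library, C57-IR replicate 2 or 3, or Slit2-non-IR replicate 3 (adjusted p of 0.0572 to 0.138). The Slit2-Tg call was lost without any of 9 libraries, all but C57-IR replicates 1 and 2 and Slit2-non-IR replicate 2 (adjusted p of 0.0596 to 0.140). Of the other 23 genes of the receptor coupling list (G protein subunits, adenylyl cyclases and their effectors), none passed. Gnai3, a Gi alpha subunit that inhibits adenylyl cyclase, came next, with means of 8.59 and 13.7 FPKM in C57-non-IR and C57-IR hearts, 8.11 and 13.4 FPKM in Slit2-non-IR and Slit2-IR hearts, and an adjusted p of 0.0559 by limma for the mean IR effect. Gnai3 did pass in 5 other settings, among them the replicate block (limma, adjusted p = 0.00682) and the fit without C57-IR replicate 1 (limma, adjusted p = 0.00276). Adcy4, an adenylyl cyclase singled out after its values were seen, passed without C57-IR replicate 1 (limma, adjusted p = 0.0455) against 0.308 with all libraries.

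P2ry2, a receptor for ATP and UTP and thus for the nucleotides that CD39 degrades, was the other gene past the threshold. It stood at 9.49, 11.5 and 12.2 FPKM in C57-non-IR and 13.4, 16.5 and 14.9 FPKM in C57-IR hearts. In Slit2-Tg hearts it stood at 12.9, 9.51 and 12.6 FPKM without IR and 21.5, 16.0 and 15.1 FPKM after IR. In both genotypes all IR libraries were higher than all non-IR libraries, as for 2.93% of all genes tested. The mean IR effect was 0.47 ± 0.11 (limma, adjusted p = 0.0419). This call was lost without any 1 of 10 libraries (limma, adjusted p of 0.0534 to 0.111), all but C57-IR replicate 1 and Slit2-IR replicate 3. Of the other 11 tested genes listed as P2 receptors 0 passed, and P2ry10 had the next smallest p, at a level of 0.0197 to 0.289 FPKM. The study placed P2ry10 among the genes raised by IR in C57BL/6J hearts and lowered by Slit2 after IR. That list used an unadjusted P under 0.05. By limma, P2ry10 also reached that unadjusted threshold here in both comparisons, in the same directions. Its difference was 0.19 ± 0.05 for IR in C57BL/6J hearts and -0.17 ± 0.05 for Slit2-Tg after IR. Neither comparison passed after adjustment, with an adjusted p of 0.190 for IR in C57BL/6J hearts (limma).

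The remaining lists held no gene past the threshold with all libraries and no block. Of 9 extracellular nucleotide-hydrolysing enzymes tested, Enpp3 had a mean IR effect of 0.15 ± 0.06 and Entpd2, a relative of CD39, one of 0.21 ± 0.11, and the list's median was 0.10. Of 25 genes of intracellular purine turnover, Adal, an adenosine deaminase-like enzyme, had -0.21 ± 0.06 (limma, adjusted p = 0.0710) and Hprt, which salvages hypoxanthine and guanine, 0.17 ± 0.06 (limma, adjusted p = 0.150), with a list median of 0.05. Of 8 genes of nucleoside transport and ATP release, Slc29a3, a nucleoside transporter of lysosomes, had -0.26 ± 0.08 (limma, adjusted p = 0.0986) and Panx1, an ATP release channel, 0.14 ± 0.07, with a list median of -0.02. Of these, Slc29a3 passed with the replicate block (limma, adjusted p = 0.0260) and Adal without Slit2-IR replicate 3 (limma, adjusted p = 0.0389). Xdh, which oxidises hypoxanthine to uric acid and was singled out after its values were seen, passed with block and limma-voom together (adjusted p = 0.0358), against 0.159 without them. For the Slit2-Tg comparisons and the interaction 0 of the 78 genes passed.

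**Figure D5:**
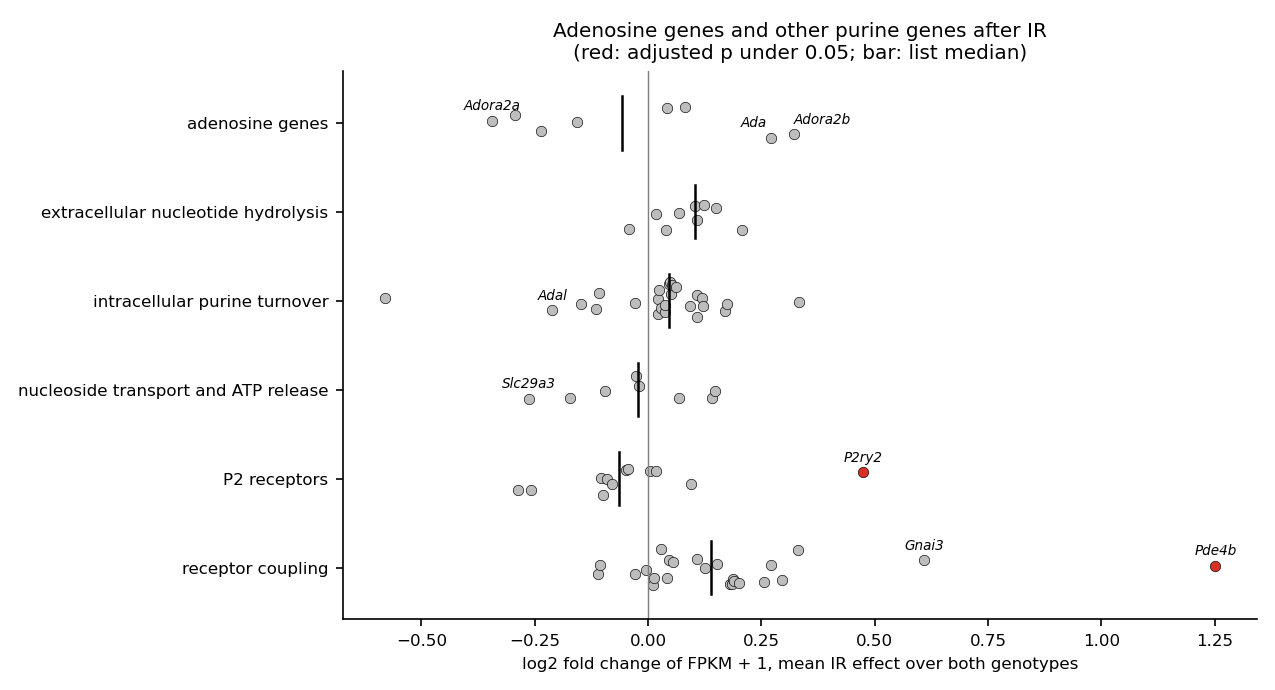
Mean IR effect on the log2(FPKM + 1) scale (x axis) of the 8 adenosine genes tested and of the 78 tested genes in 5 purine lists (rows). Each point is a gene, red where its adjusted p is under 0.05, and bars mark list medians. Pde4b at 1.25 and P2ry2 at 0.47 are the 2 genes called, and the 8 adenosine genes lie between -0.34 and 0.32.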

How the data were processed

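RNA of 12 hearts was sequenced by the authors (NEBNext Ultra kit, total RNA, Illumina HiSeq, paired-end). The authors deposited FPKM per gene and library. The submitters' processing notes name HISAT2 and mm10, and the counting tool, annotation release and use of strand are not given in the sources used here. Once multiplied by length, 100% of the FPKM of a library were whole multiples of 1 step (tolerance 0.1), which followed median-of-ratios size factors, so reads per gene and depth were recovered. There were 0 unused per-library columns. Coordinates of the 9 genes equal those of GENCODE M21 for 9 of 9.

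As FPKM are not counts, limma (moderated test, variance trend) was run on log2(FPKM + 1), 4 groups together and no covariate, which understates changes of low genes. A gene was tested if 3 or more libraries reached the level that 10 reads give at median depth, with 15 reads in total. Values are means ± SD (n = 3) or log2 fold changes ± SE. Single genes were also tested by two-sided exact permutation. The labels call the samples of a group independent and name no shared animal or batch, and p-values measure the spread between these samples. Deviations of same-numbered libraries correlated at 0.143 to 0.295 for IR in Slit2-Tg hearts and at 0.154 to 0.362 for Slit2-Tg after IR, which counts as pairing here, so blocked values are given there where a call or a count of genes is clearly altered by it. The alternatives were a pseudocount of 0.1, 2 other filters, only the libraries compared, the block, TMM scaling, limma-voom and leaving out each library. Block and limma-voom together, and the lower pseudocount in the exact tests, were added after seeing the data.

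The members, gene lists and markers were chosen with earlier results of these data known. Named genes were the 9 members, list genes past the adjusted threshold, the 2 smallest p-values per list for the mean IR effect, and the 3 genes most correlated with Ada, the member with the smallest p. The fit was tested on simulated data. limma 3.58.1 ran in R 4.3.3, and scipy 1.17.1, pandas 2.3.3 and matplotlib 3.10.9 in Python 3.11.15.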

Additional observations from a re-analysis of the deposited data

How the results depend on the processing

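Of the log2 fold changes of the 8 genes in the 6 comparisons, 366 of 368 under other scales, filters, scalings, tests and the block kept their direction and their side of the threshold. The exceptions were both Adora2b, whose mean IR effect of 0.32 passed with the replicate number as a block (limma, adjusted p = 0.0383). So did the 0.86 of block and limma-voom together (adjusted p = 0.0492), so that 1 of 8 genes was called in each. Of all 15240 genes, 518 were called higher and 255 lower with the block, and 557 and 266 with both. In the main fit 356 were higher and 176 lower. The block changed no other call of the 8 genes. Same-numbered libraries correlated at 0.0833 to 0.295 for IR in C57BL/6J hearts and at 0.0378 to 0.324 for Slit2-Tg without IR, so there the numbers were not shown to pair, and not every library correlated best with its own number.

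Leaving out a library called 0 of the 8 genes in all comparisons (0 to 0), and 26 of 576 values changed sign. These were, with their ranges, Entpd1 (-0.22 to 0.025) and Adora1 (-0.22 to 0.10) for Slit2-Tg without IR, Nt5e (-0.17 to 0.038), Adora1 (-0.27 to 0.049) and Adk (-0.062 to 0.0052) for IR in Slit2-Tg hearts, and Slc29a1 (-0.15 to 0.074) for IR in C57BL/6J hearts. For Slit2-Tg after IR they were Nt5e (-0.0074 to 0.25), Adora2a (-0.074 to 0.31), Adora2b (-0.25 to 0.15) and Adk (-0.084 to 0.027), and for the interaction Entpd1 (-0.22 to 0.029) and Adora2b (-0.090 to 0.31).

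Counts over all genes moved more. For IR in C57BL/6J hearts 70 genes became 7 with no filter, 9 with only the libraries compared, 174 with the block, 32 with limma-voom, 204 with block and limma-voom, and 3 to 254 without a library (254 without C57-IR replicate 1). For IR in Slit2-Tg hearts 80 became 19 with no filter, 202 with the block, 121 with limma-voom, 283 with both, and 4 to 180. For Slit2-Tg without IR 6 became 10 with a pseudocount of 0.1, 11 with no filter, 3 with 10 reads in every library, 2 with the block, and 1 to 14. For Slit2-Tg after IR 7 became 3 with 10 reads in every library, 4 with only the libraries compared, and 4 to 12. For the mean IR effect 532 became 299 with no filter, 823 with block and limma-voom, and 329 to 713. For the interaction 0 became 4 with no filter and 0 to 1 without a library. The causes were not tested. Depth limits Adora3 (0 to 6 reads), Adora2b (10 to 57) and Ada (20 to 69).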
